A study of Drosophila melanogaster with 18 samples.

Results

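The 10 genes described here are activity-regulated and immediate early genes of the fruit fly: sr, CG13868, CG14186, Arc1, cbt, hry, kay, Jra, puc and CG14024. Their probe sets were taken where the platform annotation gave 1 gene symbol and that symbol was one of these names. The rule found 11 probe sets for the 10 genes, among 14010 probe sets and 10845 genes on the array. Only kay had more than 1 probe set. Transcript levels were measured in heads of Canton-S flies, a wild-type Drosophila melanogaster strain, aged 2 to 5 days, with about 60 heads pooled per sample. Naive flies (6 arrays) were frozen after 50 min of humidified air. Single-exposure flies, called the fast group in the sample titles (6 arrays), had the same air period and then 40 min in 50% ethanol vapor before freezing. Five-exposure flies, called the chronic group (6 arrays), had the air period and then 5 exposures of 40 min each. The labels give neither the interval between exposures, nor the time of freezing after the fifth, nor the hour of collection, nor the sex of the flies. No air group of matching length was analysed, so ethanol and the time elapsed cannot be told apart. Serial codes in the sample titles ran group by group, and the titles do not say what these codes number. If they follow the order of processing, that order and group cannot be told apart.

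Immediate early genes are those whose transcription can start within minutes of a stimulus without new protein synthesis, and in neurons they follow electrical activity through calcium, cAMP and ERK kinase signalling. Several encode transcription factors that then act on later genes, as do the zinc finger protein of sr and the AP-1 pair of kay and Jra, the fly Fos and Jun. Others encode effectors or brakes, such as the capsid-forming protein of Arc1 and the phosphatase of puc, which switches off the JNK kinase that activates AP-1. CG13868, CG14186 and CG14024 are known mainly by number and have been reported to respond to neuronal activity in flies.

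After 1 exposure, sr, CG13868 and CG14186 were called lower and none of the 10 genes was called higher. After 5 exposures, CG14186 was again lower than in naive heads and Arc1 was higher. Between the ethanol groups, CG13868 and cbt were higher and hry lower after 5 exposures than after 1. No difference from naive passed the threshold for cbt, hry, kay, Jra, puc or CG14024, and the genes of the AP-1 and JNK arm were not called in any of the 3 comparisons. Intensities below are array units on a linear scale, one gene's units being no measure against another's. A call means an adjusted p under 0.05 in the limma fit over all 9317 tested probe sets, and a fold is the fitted ratio of geometric means.

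**Figure D1:**
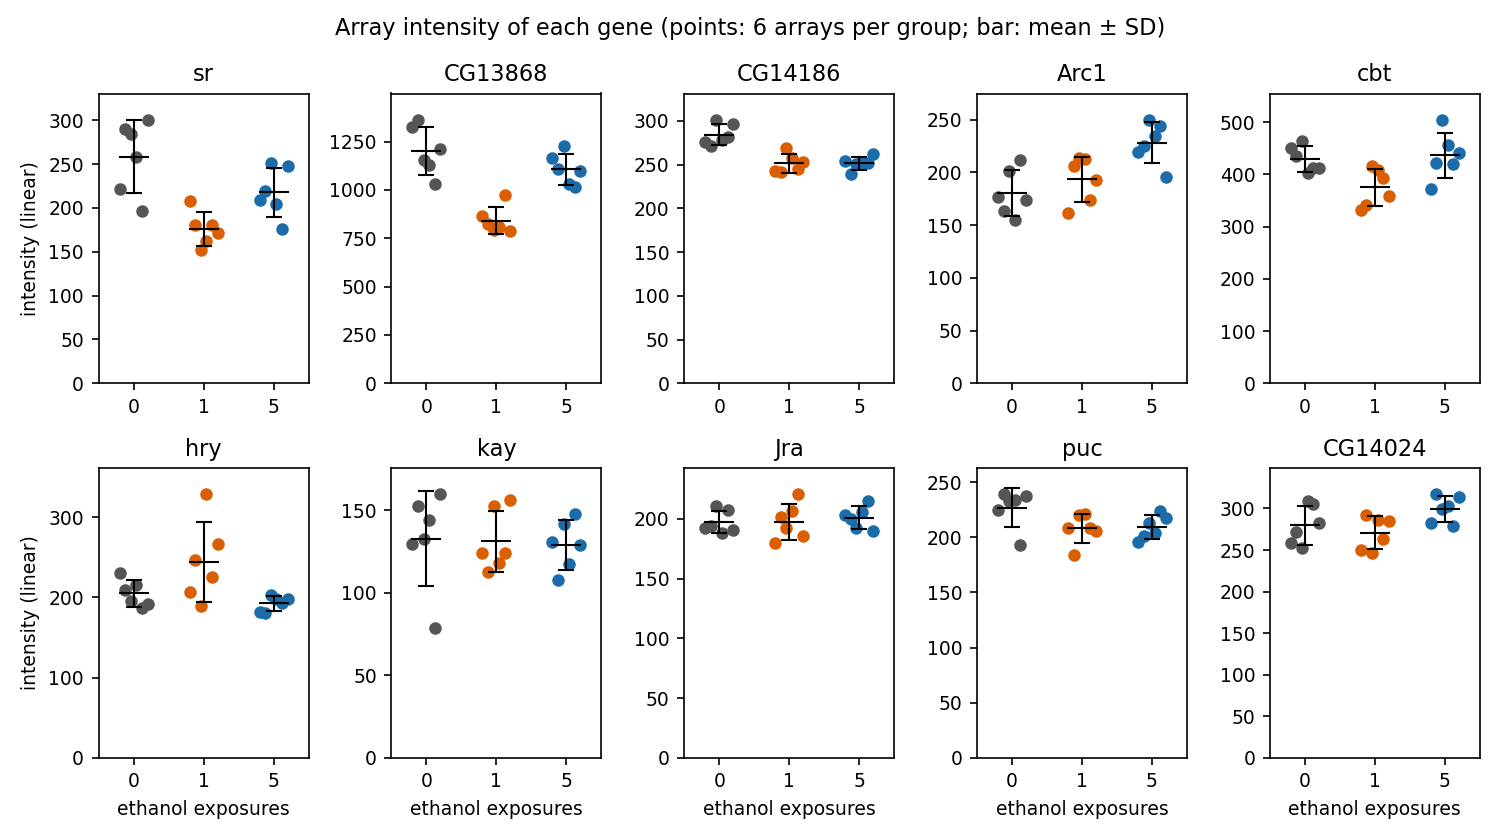
Intensity (linear array units, y axis from 0) of the 10 genes against the number of ethanol exposures, with 1 point per array, 6 arrays per group, and the mean ± SD as a bar. The sr points of the single-exposure group lie between 152 and 208 and those of the naive group between 196 and 301, and the kay panel shows 1 naive array at 78.6, below the other 17.

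The gene sr (stripe) encodes an EGR-family zinc finger transcription factor, related to mammalian EGR1, that also specifies tendon cells in the fly embryo. Its naive arrays ran from 196 to 301 with a median of 271. Single-exposure arrays ran from 152 to 208 with a median of 176, and five-exposure arrays from 176.5 to 251 with a median of 214. The single-exposure group was the lowest, with 5 of its 6 arrays below every naive array and the groups overlapping at one point only, single-exposure replicate 1 (208) against naive replicate 5 (196). The five-exposure values lay in between and overlapped both other groups. The mean went from 258.5 ± 41.7 to 176 ± 19.4 (SD, n = 6 each) after 1 exposure, a fold of 0.684 (95% interval 0.591 to 0.792, limma adjusted p = 0.00156).

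In that comparison sr ranked 13th by size among the 173 probe sets called lower. After 5 exposures the mean of sr was 218 ± 28.2, a fold of 0.847 against naive that did not pass (0.731 to 0.981, limma adjusted p = 0.207). Against single exposure, sr stood at 1.24-fold after 5 exposures (1.07 to 1.43), which also missed the threshold (limma adjusted p = 0.0687). That last difference passed without naive replicate 5 (0.0299), single-exposure replicate 1 (0.0358) or five-exposure replicate 5 (0.0265). It also passed with array weights (0.0168) and with only the 2 groups in the fit (0.0312). The fall of sr after 1 exposure was called in each of the 28 alternatives, at log2 fold changes from -0.62 to -0.50.

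CG13868 had the smallest adjusted p of the 10 genes after 1 exposure. Naive arrays ran from 1029 to 1362 (median 1184), single-exposure arrays from 786 to 975 (median 815) and five-exposure arrays from 1015 to 1227 (median 1103.5). The single-exposure group lay wholly below both other groups, while naive and five-exposure arrays overlapped. After 1 exposure the mean fell from 1202 ± 125 to 841 ± 71.6 (n = 6 each), a fold of 0.701 (0.636 to 0.772, limma adjusted p = 3.08e-05). After 5 exposures it was 1107 ± 80.7, at 0.923-fold of naive (0.838 to 1.02, limma adjusted p = 0.416) and 1.32-fold of single exposure (1.2 to 1.45, limma adjusted p = 0.00038). The difference between the ethanol groups was called in each of the 28 alternatives.

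CG14186 changed little in size but was tightly measured. Naive arrays ran from 271 to 301 (median 280), single-exposure arrays from 242 to 269 (median 249) and five-exposure arrays from 239 to 262 (median 252). All 12 ethanol arrays were below all 6 naive arrays, and the ethanol groups overlapped each other. The fold was 0.886 after 1 exposure (0.838 to 0.936, limma adjusted p = 0.00713) and 0.886 after 5 exposures (0.838 to 0.936, limma adjusted p = 0.00591). Both comparisons use the same naive arrays. Between 5 exposures and 1 the fold was 1.0, with an interval of 0.946 to 1.06. Within groups, the SD of CG14186 on the log2 scale was 0.055, smaller than in all but 5.46% of the tested probe sets.

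CG14024 was not called. Its arrays ran from 252 to 309 in the naive group (median 277), from 246.5 to 292 after 1 exposure (median 274.5) and from 279 to 317 after 5 exposures (median 301). The groups overlapped throughout, with the highest mean after 5 exposures. The fold of 5 exposures over 1 was 1.11 (1.02 to 1.2, limma adjusted p = 0.143), and over naive it was 1.07 (0.986 to 1.16, limma adjusted p = 0.41). After 1 exposure it stood at 0.968 of naive (0.891 to 1.05, limma adjusted p = 0.795).

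Arc1 encodes a Gag-like protein derived from a retrotransposon, which forms capsids that carry RNA across synapses. Its arrays ran from 155 to 211 in naive heads (median 175), from 162 to 213 after 1 exposure (median 199) and from 196 to 250 after 5 exposures (median 230). The naive mean was the lowest and the five-exposure mean the highest, with 5 of the 6 five-exposure arrays above every naive array and also above every single-exposure array. The sixth, five-exposure replicate 6, was at 196. After 5 exposures the mean rose from 180 ± 22.0 to 228 ± 19.5 (n = 6 each), a fold of 1.27 (1.13 to 1.43, limma adjusted p = 0.0111). After 1 exposure the fold was 1.07 (0.955 to 1.21, limma adjusted p = 0.626).

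The neighbouring groups in that order did not differ at the threshold: 5 exposures against 1 gave 1.18-fold for Arc1 (1.05 to 1.33, limma adjusted p = 0.0753). This difference passed without naive replicate 5 (0.0481) or five-exposure replicate 6 (0.0367). Arc1 after 5 exposures was called against naive in each of the 28 alternatives (limma adjusted p up to 0.0432). Within groups Arc1 ran opposite to sr and CG13868: after subtracting the group means, its Pearson correlation over 18 arrays was -0.54 with sr and -0.46 with CG13868, and -0.41 and -0.32 without naive replicate 5. These values are descriptions, since the genes share arrays and normalization.

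The gene cbt (cabut) encodes a Krüppel-like zinc finger transcription factor with roles in sugar sensing and in closure of the embryonic epidermis. Its arrays ran from 404 to 464 in naive heads (median 424), from 332.5 to 417 after 1 exposure (median 375.5) and from 372 to 504.5 after 5 exposures (median 432). In the single-exposure group 4 of 6 arrays were below every naive array, and all groups overlapped. The fold after 1 exposure, 0.871 (0.791 to 0.959), did not pass (limma adjusted p = 0.109). It passed only with the replicate number as a block (0.0489), among the 28 alternatives. After 5 exposures cbt stood at 1.01-fold of naive (0.92 to 1.12) and at 1.16-fold of single exposure (1.06 to 1.28, limma adjusted p = 0.047).

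That last call for cbt sat at the threshold and was lost in 15 of 28 alternatives. They were no filter on low values (0.104), only the 2 groups compared (0.0757), array weights (0.0735) and leaving out any of 12 arrays, with limma adjusted p up to 0.132. The 12 were naive replicates 1, 2 and 6, single-exposure replicates 1, 2, 5 and 6, and five-exposure replicates 2, 3, 4, 5 and 6.

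The gene hry (hairy) encodes a basic helix-loop-helix repressor that works with the corepressor Groucho and patterns the embryo. Its arrays ran from 187 to 230 in naive heads (median 202), from 189.5 to 328 after 1 exposure (median 236) and from 181 to 203 after 5 exposures (median 195). The single-exposure group was widest, with replicates 4 (328), 6 (266.5) and 2 (246) above every naive array and the other 3 within the naive range. Its coefficient of variation was 20.4%, against 8.01% in naive and 4.79% in five-exposure arrays. The fold after 1 exposure was 1.17 (1.03 to 1.34, limma adjusted p = 0.215) and after 5 exposures 0.941 (0.824 to 1.08, limma adjusted p = 0.727).

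The five-exposure group stood at 0.802-fold of the single-exposure group for hry (0.702 to 0.916, limma adjusted p = 0.034), a call lost in 10 of 28 alternatives. These were no filter on low values (0.100), only the 2 groups compared (0.0569), and leaving out single-exposure replicate 2, 4 or 6 or five-exposure replicate 1, 2, 4, 5 or 6 (up to 0.0849). Without single-exposure replicate 4, the highest array, the log2 fold change moved from -0.32 to -0.23.

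**Figure D2:**
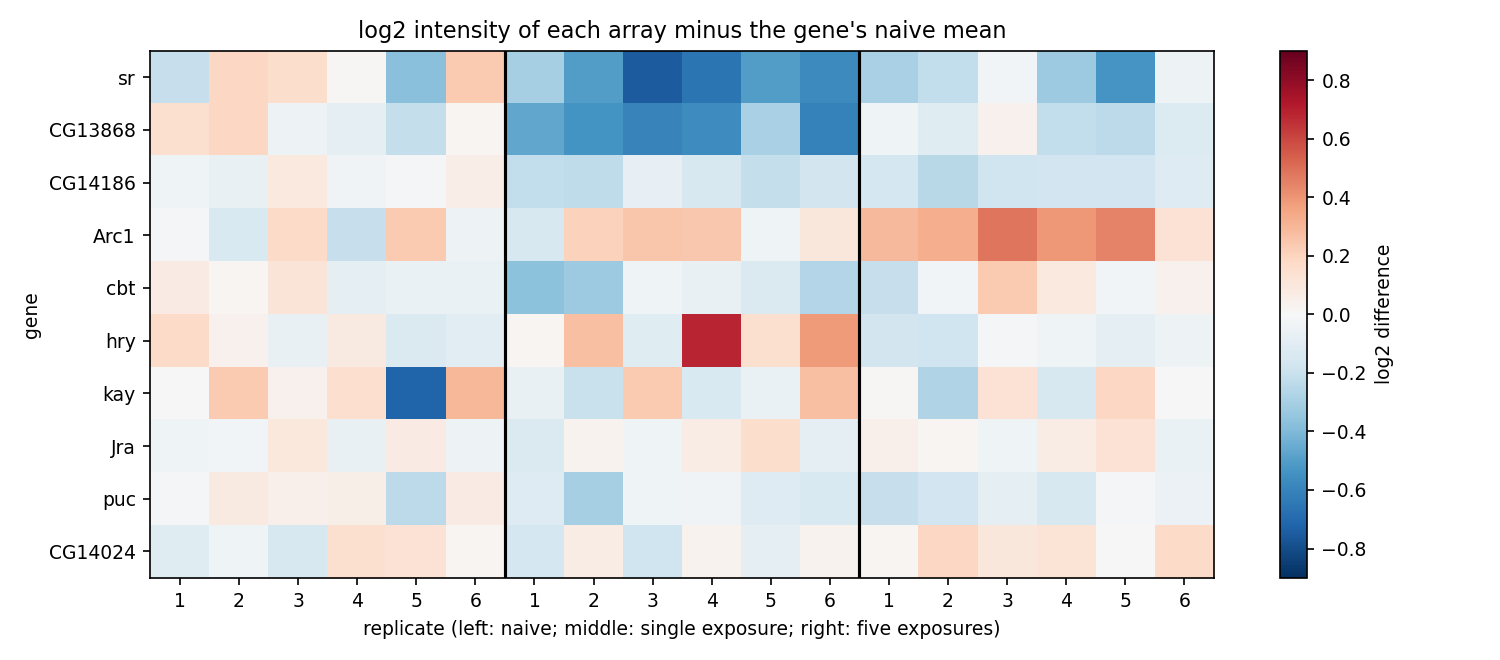
Log2 intensity of each array minus the mean of the gene's naive arrays (colour), with genes as rows and the 18 arrays as columns, 6 per group with the naive arrays first and the five-exposure arrays last. The sr and CG13868 rows are blue across the single-exposure block, the Arc1 row is red across the five-exposure block, and kay has 1 strongly blue cell at naive replicate 5.

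The AP-1 and JNK arm holds kay (Fos), Jra (Jun) and puc, a dual-specificity phosphatase that AP-1 induces and that shuts JNK down. None of the 3 was called in any comparison. The first probe set of kay ran from 78.6 to 159.5 in naive heads (median 138), from 113 to 156 after 1 exposure (median 124) and from 108 to 148 after 5 exposures (median 130). The groups overlapped almost fully, apart from naive replicate 5 at 78.6. The kay folds were 1.0 after 1 exposure (0.831 to 1.21) and 0.989 after 5 (0.819 to 1.2), the widest intervals among the 10 genes. The second probe set of kay ran from 26.0 to 40.2 over all 18 arrays, below the floor of 57.8 on each, and so gives no measurement of change.

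Jra ran from 188 to 211 in naive heads (median 193), from 180 to 220.5 after 1 exposure (median 197) and from 190 to 215 after 5 exposures (median 202). Its groups overlapped. The Jra fold was 1.0 after 1 exposure (0.932 to 1.07) and 1.02 after 5 exposures (0.949 to 1.09), the narrowest bounds in this arm. The arrays of puc ran from 193 to 239 in naive heads (median 234), from 184 to 221 after 1 exposure (median 209) and from 196 to 223.5 after 5 exposures (median 209). Both ethanol groups of puc lay toward the lower end of the naive range. The puc fold was 0.918 after 1 exposure (0.848 to 0.993, limma adjusted p = 0.281) and 0.924 after 5 exposures (0.854 to 1.0, limma adjusted p = 0.287). Without naive replicate 5, its lowest naive array, puc passed in both comparisons, at log2 fold changes of -0.17 (limma adjusted p = 0.0405) and -0.16 (0.0497), and with array weights it passed after 5 exposures (0.0351).

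**Figure D3:**
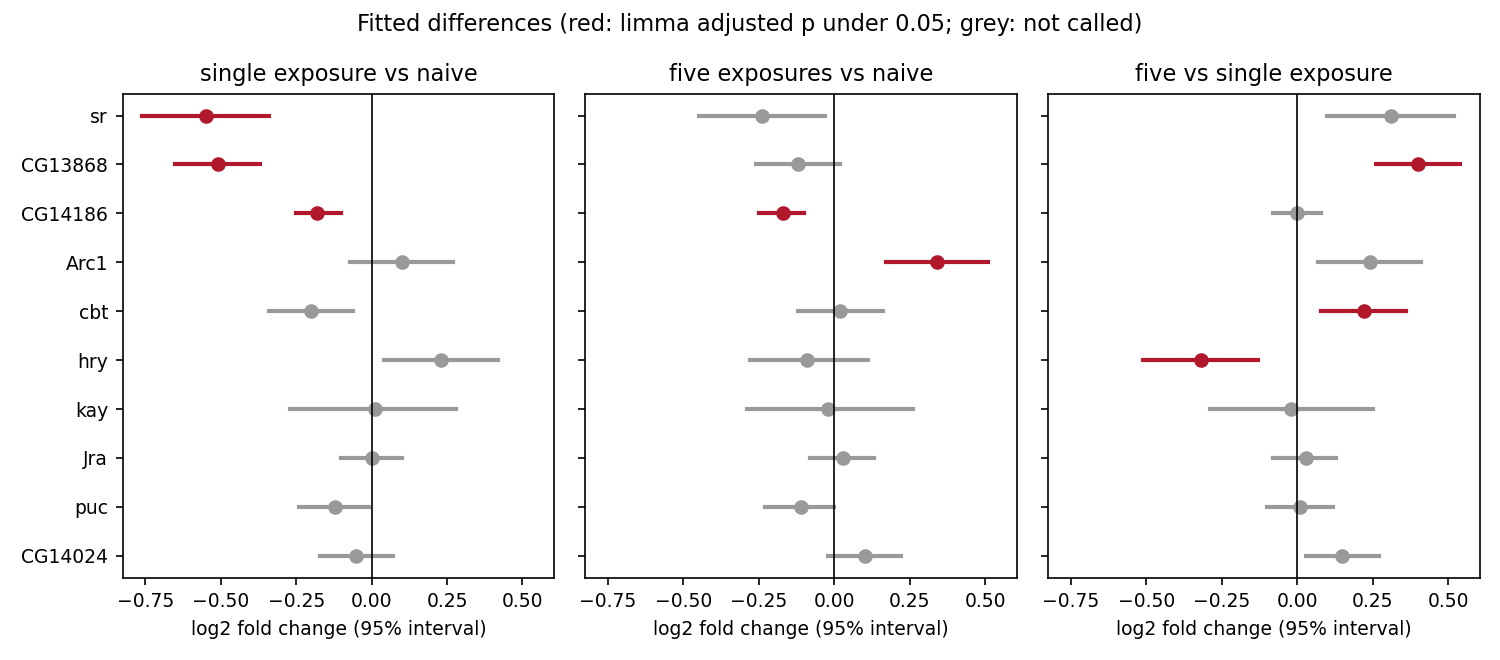
Fitted log2 fold change (point) and 95% interval (line) of the 10 genes in the 3 comparisons, red where the limma adjusted p is under 0.05 and grey otherwise. After 1 exposure sr, CG13868 and CG14186 are red and below 0, after 5 exposures CG14186 is red below 0 and Arc1 red above 0, and between the ethanol groups CG13868, cbt and hry are red.

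Counted together, 3 of the 10 genes tested were called after 1 exposure, all lower and 0 higher, where 4.42% of all tested probe sets were called, 1.86% lower and 2.57% higher. After 5 exposures 2 of 10 were called, against a background of 6.33%, with 1 higher (background 2.48%) and 1 lower (background 3.85%). Between 5 exposures and 1, 3 of 10 were called against 8.50%, with 2 higher (3.74%) and 1 lower (4.77%). The median log2 fold change of the 10 genes was -0.09 after 1 exposure, -0.05 after 5, and 0.09 for 5 against 1, beside 0.01, 0.01 and -0.01 over all tested probe sets. Over the 3 groups at once, the limma F test called sr (adjusted p = 0.00237), CG13868 (3.22e-05), CG14186 (0.00286) and Arc1 (0.0159), 4 of 10 where the background was 11.0%. The 3 comparisons share their groups, so their calls are not independent. The genes were gathered with earlier results of these arrays known. These shares are therefore no independent evidence of an excess of calls or of a direction.

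Groups did not overlap for CG13868 and CG14186 after 1 exposure (2 of 10, both lower, where 3.01% of tested probe sets did not overlap, 1.12% lower and 1.89% higher). After 5 exposures they did not overlap for CG14186 (1 of 10, lower, against 3.66%, with 2.09% lower and 1.57% higher). Between the ethanol groups they did not overlap for CG13868 (1 of 10, higher, against 5.10%, with 3.01% lower and 2.09% higher). These shares carry the same limit, since the genes were gathered with earlier results of these arrays known.

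**Figure D4:**
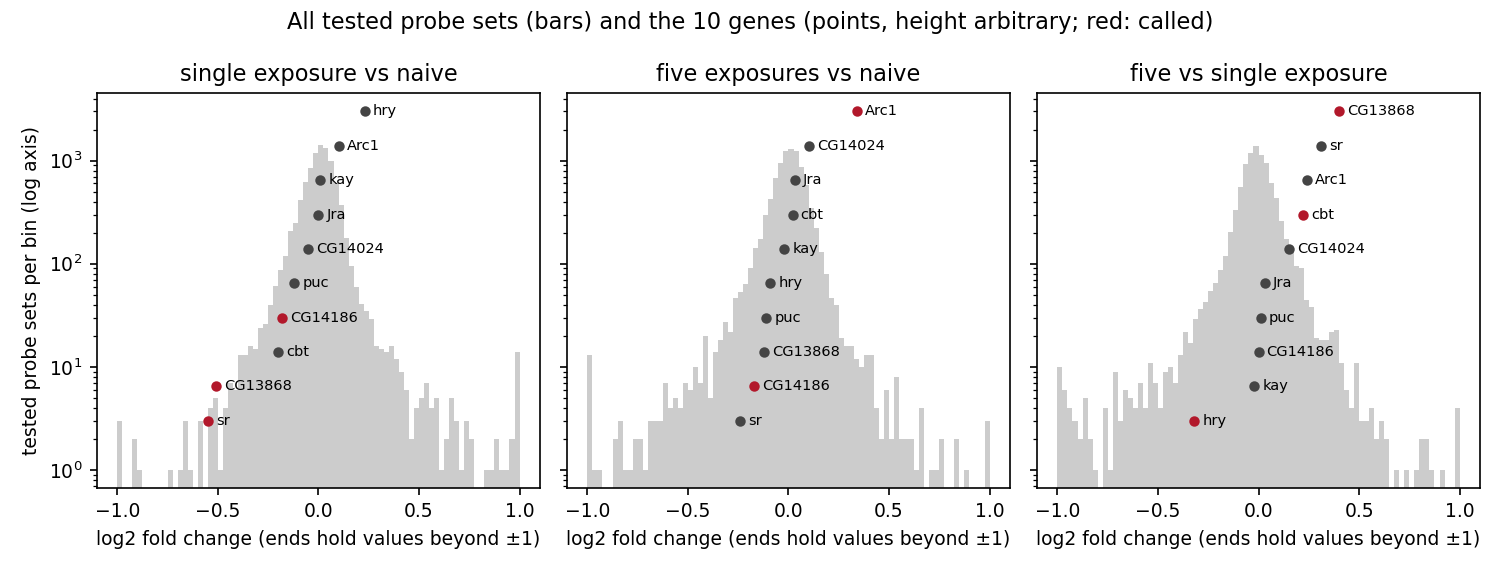
Number of tested probe sets per bin of log2 fold change (grey bars, log axis, 9317 in all) in the 3 comparisons, with the 10 genes as points at their own fold change and at arbitrary height, red where called. After 1 exposure sr at -0.55 and CG13868 at -0.51 lie in the thin lower tail, whereas kay and Jra lie at the centre in all 3 panels.

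Correlations among the 10 genes were mixed. Over the 45 pairs, Pearson correlations across 18 arrays had a median of 0.04 and ran from -0.48 (CG13868 with hry) to 0.82 (sr with CG13868). The sr and CG13868 value was 0.53 after subtracting group means, and 0.36 when naive replicate 5 was also left out. The highest correlation within groups was that of kay with puc, at 0.77, or 0.53 without naive replicate 5. Jra, the partner of kay in AP-1, had a correlation of -0.37 with kay. All such values are descriptions over arrays that share their groups and normalization.

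Among all single-symbol probe sets, those most like sr across the 18 arrays were CG1607 (r = 0.85), wun (0.82), which encodes a lipid phosphate phosphatase, and CG13868 (0.82). The most opposite to sr were the Hsp40 chaperone gene DnaJ-1 (-0.83), GstE1 (-0.81) and Cda9 (-0.80). CG13868 was most like Miox, a myo-inositol oxygenase gene, CG9649 and the fat body transcript fit, each at 0.88. CG14186 was most like CG7781 (0.89), CG2991 and CG18549 (0.85 each). For Arc1 the nearest were Gbs-76A (0.91), Rab3-GEF (0.82), whose product acts on the synaptic vesicle GTPase Rab3, and Not10 (0.81). For cbt they were the mitophagy gene BNIP3 (0.78), nocte and CG30349 (0.76 each). For hry they were the pantothenate kinase gene fbl (0.89), CG5853 (0.84) and the acetyl-CoA carboxylase gene ACC (0.83). After subtracting group means, the values were 0.41 to 0.53 for the genes nearest CG13868 and 0.53 to 0.72 for those nearest sr. For the genes most opposite to sr they were -0.65 to -0.51. For the genes nearest CG14186, Arc1, cbt and hry they were 0.56 to 0.86. These ranks were picked from 8303 tested single-symbol probe sets on the same arrays and carry no test.

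Of 10 other genes listed as activity-regulated, 8 had a probe set annotated with their symbol alone. Of these, 4 were bright enough to test: CG8910, CG13055, Ets21C and Atf3. None of the 4 was called, and their log2 fold changes lay between -0.03 and 0.18 after 1 exposure and between -0.07 and 0.15 after 5. The nuclear receptor gene Hr38, a standard activity marker in insects, and Arc2 fell below the filter and were not tested. The medians of these 4 were 0.03 after 1 exposure, 0.03 after 5 and -0.01 for 5 against 1. Upstream of AP-1, 25 genes of the JNK pathway and its neighbouring stress kinases were listed, and 20 had a probe set annotated with their symbol alone. All 20 were tested, among them the JNK gene bsk, the kinase genes hep, Mkk4 and msn, and the ligand gene egr. None was called after 1 exposure, where the 20 log2 fold changes ran from -0.11 to 0.12. After 5 exposures only the receptor gene grnd was called, lower at 0.887-fold (0.830 to 0.947, limma adjusted p = 0.0237). The median of the JNK pathway list was 0.02 after 1 exposure and 0.01 after 5, beside 0.01 over all tested probe sets in each. Of 4 MAP kinase phosphatase genes tested, puc included, none was called in any comparison. Of all tested probe sets 4.42% were called after 1 exposure, 6.33% after 5 and 8.50% for 5 against 1. At these shares, lists of 4 to 20 genes would hold few or no calls. The same shares stand beside the counts of the lists below.

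Of 22 names listed as reported JNK or AP-1 targets, 11 were tested, and Mmp1, rpr, hid, Thor and upd3 were not among them. This list, like the others, was chosen with earlier results of these data known. Its share of calls is therefore no independent evidence about JNK or AP-1. The list median after 1 exposure was 0.02. In that comparison 3 of the 11 were called higher and 0 lower, where 2.57% of all tested probe sets were higher and 1.86% lower. They were GstD1, a glutathione transferase gene (1.51-fold), the small heat shock gene Hsp26 (1.61-fold, 1.24 to 2.08, limma adjusted p = 0.0269) and the filamin gene cher (1.28-fold, 1.21 to 1.36, limma adjusted p = 6.93e-06). Hsp26 was at 566 in single-exposure replicate 3, and from 187.5 to 212 in the other 5 arrays of that group, against 136 to 165 in naive arrays. Without replicate 3, the log2 fold change after 1 exposure was 0.44 in place of 0.69, and for 5 exposures against 1 it was -0.45 in place of -0.70, both called. The rise after 1 exposure missed the threshold without naive replicate 1, 2, 3 or 6 (limma adjusted p up to 0.062). GstD1 and Hsp26 are also known to answer oxidative and heat stress. None of the 3 was called between 5 exposures and naive. They were lower after 5 exposures than after 1, GstD1 at 0.614-fold, Hsp26 at 0.617-fold and cher at 0.754-fold. For scaf, a second probe set was lower after 5 exposures (0.877-fold, limma adjusted p = 0.0191), whereas the brighter one stood at 0.967 (limma adjusted p = 0.726).

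Of 15 bZIP genes, the family of kay and Jra, vri was higher after 1 exposure (1.25-fold) and lower after 5 exposures than after 1 (0.804-fold). Atf6, an ER stress factor gene, was higher after 5 exposures than after 1 (1.17-fold, limma adjusted p = 0.0474), and no bZIP gene was called between 5 exposures and naive. Of 19 tested genes that carry calcium, cAMP or ERK signals to the nucleus, the receptor gene Egfr was lower after 1 exposure (0.774-fold) and higher after 5 exposures than after 1 (1.28-fold, limma adjusted p = 0.0216). Its second probe set was not called in either comparison (limma adjusted p = 0.0988 and 0.0563). Pka-R1, a protein kinase A regulatory subunit gene, was lower after 5 exposures on its brightest probe set (0.869-fold, limma adjusted p = 0.0128), and 2 other probe sets were not called (0.911 and 0.701). The calcineurin regulator gene sra was lower after 5 exposures than after 1 (0.847-fold, limma adjusted p = 0.0206).

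Among relatives of the transcription factors, 12 genes of the hairy and Enhancer of split group were tested. Besides hry, the clock repressor gene cwo was called, lower after 1 exposure on its brighter probe set (0.795-fold). Its other probe set was not called (limma adjusted p = 0.0733). In the KLF, Sp and EGR family the 6 tested genes gave calls for sr and cbt only. In a list of tendon and muscle attachment genes, which sr is known to act on in embryos, 9 were tested, and besides sr only slow was called, at 1.09-fold for 5 exposures over 1 (limma adjusted p = 0.0158). Of the calls in these lists, those of GstD1, cher, vri, cwo, slow and Pka-R1 held with any 1 array left out, a setting added after seeing the data. The fall of grnd was lost without naive replicate 2 or 5 or five-exposure replicate 3 or 4 (limma adjusted p up to 0.0631), and that of sra without single-exposure replicate 3 (0.0518). The Egfr call after 1 exposure was lost without naive replicate 1, 2 or 4 or single-exposure replicate 2 or 3 (up to 0.0682). The Egfr call between the ethanol groups was lost without single-exposure replicate 2 or five-exposure replicate 3, 5 or 6 (up to 0.0628). The Atf6 call was lost without any of 13 of the 18 arrays (up to 0.128), the exceptions being naive replicates 4, 5 and 6, single-exposure replicate 1 and five-exposure replicate 2. The medians of the last 5 lists, from bZIP to muscle attachment, lay between -0.02 and 0.02 in every comparison. Those of the MAP kinase phosphatases were -0.04, -0.03 and 0.01, and those of the JNK and AP-1 targets after 5 exposures and for 5 against 1 were -0.05 and -0.03.

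In whole heads, fewer cells of a type and less RNA per cell cannot be told apart. Beside the fall of sr and CG13868 after 1 exposure, 0 of 5 neuron markers were called, and their summed intensity ran from 1953 to 2399 in naive and from 1810 to 2259 in single-exposure arrays. Of 5 glia markers the GABA transporter gene Gat was lower (sums 4844 to 5502 and 4441 to 5018). Of 7 fat body markers Lsp2 was higher (1.43-fold, limma adjusted p = 0.012) and fit lower (0.398-fold, limma adjusted p = 6.6e-06). Like CG13868, fit was higher after 5 exposures than after 1 (2.73-fold, limma adjusted p = 1.38e-06). The fat body sums ran from 40283 to 44272 in naive and from 40542 to 42438 in single-exposure arrays. These sums were mostly signal of Yp1, Yp2 and Yp3 (naive means 11546, 11312 and 10293), beside 2544 for fit. A second probe set of apolpp was also lower (0.782-fold, limma adjusted p = 0.0245), whereas the brighter one stood at 0.897 (limma adjusted p = 0.134). Photoreceptor (0 of 4), muscle (0 of 7), cuticle (0 of 6) and haemocyte markers (0 of 4) were not called in that comparison. Beside the rise of Arc1 after 5 exposures, 6 of 7 muscle markers were lower (sums 8297 to 12090 in naive and 6119 to 8610 in five-exposure arrays), as were 6 of 6 cuticle markers (6477 to 10407 and 3135 to 5922). In that comparison 0 of 5 neuron markers were called (1953 to 2399 and 1817 to 2441), 1 of 4 photoreceptor, 1 of 5 glia and 2 of 4 haemocyte markers were lower, and 2 of 7 fat body markers were higher. None of the tested markers of any list lay at the floor on all arrays, and the part of these markers in the results for sr, CG13868 and Arc1 was not tested.

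Array quality controls also differed between groups. For the 18S rRNA control, the log2 of 3′ over 5′ signal was -2.92 ± 0.44 in naive, -1.99 ± 0.23 in single-exposure and -2.13 ± 0.60 in five-exposure arrays (SD, n = 6 each). For the actin control it was 2.01 ± 0.08, 2.18 ± 0.12 and 2.21 ± 0.15 in the same order, higher on average in both ethanol groups. The GAPDH control was at 1.30 in all groups, and the eIF-4a control at 0.54, 0.57 and 0.51. Among the 18 arrays, naive replicate 5 correlated least with the rest of its group (mean 0.982, others 0.988 to 0.992). It was the lowest naive array for 5 of the 10 genes, sr, CG13868, hry, kay and puc. Without it the log2 fold change after 1 exposure was -0.62 for sr, -0.56 for CG13868 and -0.18 for CG14186, and that of Arc1 after 5 exposures was 0.39. Each of these was still called. The part of RNA quality in the results was not tested.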

How the data were processed

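The authors deposited linear-scale intensities, already summarised to probe sets and scaled between arrays, with software not given in the sources used here. Array medians lay between 125.4 and 129.3. RNA was labelled with biotin from 6 µg of total RNA, per the labels' protocols. Gene symbols are those of the platform annotation, brought up to date by gene identifier: 12444 probe sets had 1 symbol, 327 several and 1239 none. Deposited values were floored at 57.8, the 20th percentile of all arrays pooled, before log2 was taken. The 44 controls and the lowest 1/3 by mean log2 (below 6.42) were left out, leaving 9317 probe sets. Of the members only the second kay probe set was removed.

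One linear model with 3 groups was fitted to all 18 arrays (limma 3.58.1, R 4.3.3, lmFit and eBayes, 15 residual degrees of freedom), with Benjamini-Hochberg adjustment over all tested probe sets, two-sided. The labels call the arrays biological replicates, and their number limits precision. In simulated data for 1 exposure against naive over 9317 probe sets, 74% of 50 changes of 1.2-fold and 100% of 50 of 1.5-fold were recovered, with 10 false calls. Changes of 2-fold and 3-fold, 50 each, were also put in. The noise was normal and independent, without outlying arrays or quality differences, so the simulation checks the fit and gives no power for single genes. The within-group SDs of kay, sr and hry were larger than those of 99.1%, 96.8% and 95.0% of tested probe sets. No pair of arrays was a duplicate, since log2 differences had an SD of at least 0.11. Members and gene lists were chosen with earlier results of these data known. Named genes were all members, called genes of each list (up to 6), and the 3 probe sets most like each called member. A gene of a list was represented by its brightest probe set. Tables and plots were made with pandas 2.3.3 and matplotlib 3.10.9 under Python 3.11.15. Alternatives changed normalization, the handling of low values, the variance model, array weights, the arrays fitted and a replicate block.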

Additional observations from a re-analysis of the deposited data

Results flagged for a closer look

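Of 33 sets of 6 values (11 probe sets in 3 groups), 2 held an array standing apart from the rest by Dixon's test at its 95% critical value, which chance alone does in about 1 set in 20. Both were naive replicate 5: kay at 78.6, with the next lowest naive array at 129, and puc at 192.6, with the next lowest at 225. Effects that differed between 5 exposures and 1, as tested by limma on the difference itself, for 3 genes: CG13868 (0.40 on the log2 scale, limma adjusted p = 0.00038), cbt (0.22, adjusted p = 0.047) and hry (-0.32, adjusted p = 0.034). The calls of cbt and hry depended on the alternatives given with them above.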

How the results depend on the processing

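The 28 alternatives were 10 other settings and each of 18 arrays left out. The calls of sr, CG13868 and CG14186 after 1 exposure, of CG14186 and Arc1 after 5, and of CG13868 between the ethanol groups held in all of them. The members called after 1 exposure numbered 3 or 4 and those after 5 exposures 2 or 3. Between the ethanol groups the 3 calls became 1 without a filter on low values, and ranged from 1 to 5 with 1 array left out: 5 without naive replicate 5 and 1 without single-exposure replicate 2 or 6 or five-exposure replicate 2 or 4. With all probe sets of a gene, the JNK and AP-1 targets had 1 call after 5 exposures in place of 0, because scaf has a second probe set.

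Directions turned only where the main value was near 0. After 1 exposure kay was at -0.0037 with quantile normalization, -0.00695 with median centring and -0.061 with array weights, and -0.138 to 0.0661 with 1 array left out. Jra was at -0.00502, -0.0125 and -0.0317 to 0.0271 for quantile normalization, median centring and 1 array left out. Leaving out 1 array gave -0.16 to 0.0445 for kay and -0.0246 to 0.063 for cbt after 5 exposures. For 5 exposures against 1 it gave -0.0632 to 0.0307 for kay, -0.0115 to 0.0201 for CG14186 and -0.0246 to 0.0286 for puc, which was at -0.0108 with array weights. The cause was not tested. Whether replicate numbers pair arrays across groups was not settled, and the main fit held no pairing. Deviations of same-numbered arrays from their group means correlated from -0.24 to 0.52 (mean 0.13), above 0.1 in 8 of 18 pairs. Those of differently numbered arrays correlated from -0.453 to 0.435 (mean -0.026), above 0.1 in 27 of 90 pairs. With the replicate number as a block, 502, 683 and 898 probe sets were called in place of 412, 590 and 792, and the only member whose call changed was cbt after 1 exposure (adjusted p = 0.0489). Without a detection call, low values such as those of the second kay probe set cannot be read.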
